A study of Mus musculus with 8 samples.

Results

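The transcriptome of upper cortical layers in control mouse pups was described from 4 arrays, those labelled Bcl6 control, of 8 arrays in the series. Each array held RNA of 1 pup at postnatal day 5, taken by laser microdissection from layers II to IV of the neocortex and hybridised to an Affymetrix Mouse Gene 1.0 ST array. The 4 pups were Bcl6 flox/flox;Nex +/+, which means that both copies of Bcl6 carried loxP sites and no Cre gene was present, so Bcl6 was not cut. Pups without the loxP sites were not analysed here, and the series title names the question as the control of naturally occurring death among projection neurons of the cortex. The arrays were chosen by their genotype label alone, and every probe set that names 1 gene was used, which gave 19938 genes. For the 999 genes with several such probe sets, the brightest on average in these 4 pups stood for the gene. The 4 arrays are called replicates 1 to 4 after the numbers in their labels, and their order has no meaning. With 1 array per pup, differences between animals and differences between hybridisations cannot be told apart.

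The neocortex is a stack of layers, and layers II to IV are its upper part below the marginal zone. Neurons of layers II and III send their axons mainly to other cortical areas and across the corpus callosum, while neurons of layer IV receive the main input from the thalamus. In the first postnatal days of the mouse these neurons have reached their places and are growing axons and dendrites, most of their synapses are still to form, astrocytes are still increasing in number, and myelin has not been laid down. A dissected strip of cortex holds all of these cells together with inhibitory interneurons, glia and blood vessels. In such bulk tissue, fewer cells of a type and less RNA per cell cannot be told apart.

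The levels of the 19938 genes, as the mean log2 signal over the 4 arrays, ran from 1.37 to 13.37 with a median of 5.56 and quartiles of 3.98 and 7.36. A level is the brightness of a gene's probes, which also depends on the probes themselves, so a percentile below places a gene in the order of array signals and is not an amount of RNA. The table holds no detection calls. A lower bound was therefore read from 80 genes of tissues that are absent from cortex, such as liver, muscle, retina, testis and skin. Their levels had a median of 4.0 and ran from 1.68 for Cyp3a11, a liver enzyme gene, to 6.58 for Acta1, the actin of skeletal muscle. The 95th percentile of these genes, 5.23, is called the absent-tissue level here. Above it lay 10893 of the 19938 genes, or 54.6%, which is the background for every count of genes above that level. A gene below it may still be transcribed, and 4 of the 80 reference genes lay above it.

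**Figure D1:**
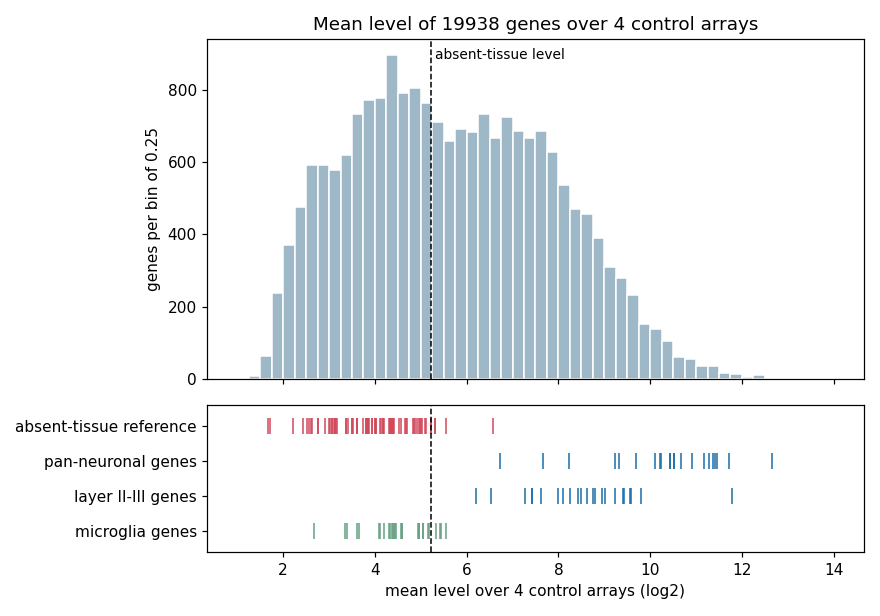
The upper panel is a histogram of the mean levels of 19938 genes over the 4 control arrays (x axis, log2; y axis, genes per bin of 0.25), and the lower panel marks single genes of 4 lists on the same x axis. The dashed line is the absent-tissue level of 5.23. All 22 measured pan-neuronal genes and all 23 measured layer II-III genes lay to its right, while 4 of 29 microglia genes did.

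Promoters differed along this order of levels. For 15614 genes a RefSeq promoter of the GRCm38.p6 build was matched by symbol, and the 250 bases before the first listed start were read. CpG dinucleotides are lost from most of the mouse genome, and the ratio of their observed to their expected number is near 1 where they have been kept, in CpG islands. The median ratio was 0.59 over all promoters, 0.13 in the decile of genes with the lowest levels and 0.79 in the decile with the highest. The GC box (GGGCGG or CCGCCC, so either strand) was present in 46.0% of all promoters, in 5.88% of the lowest decile and in 62.7% of the highest. The letters TATAAA, searched on the gene's strand only, went the other way, with 7.24% of all promoters, 20% of the lowest decile and 3.46% of the highest. The ETS motif CCGGAAG, on either strand, was found in 9.63% of all promoters, in 1.52% of the lowest decile and in 14.1% of the highest. These are matches of letters across genes, and genes are not independent of each other. In particular, olfactory and vomeronasal receptor genes lay mostly in the lowest decile, with median percentiles of 7.8 and 4.1. Their 864 and 146 promoters had median ratios of 0.10 and 0.11, and the lowest decile held 1513 promoters in all. The lowest decile was not read without these families.

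The order of levels had exceptions among the marker genes, which the following promoters show. Each is 250 bases, printed 5′ to 3′ along the gene's strand with every CG dinucleotide in capitals. Cux2 (chr5:122049852-122050101, minus strand) and Rorb (chr19:19111197-19111446, minus strand), which encode transcription factors used as markers of layers II to IV and of layer IV, held 40 and 18 CG dinucleotides, with ratios of 1.04 and 0.70. Neurod6 (chr6:55681264-55681513, minus strand), the gene that the study calls Nex, and Fabp7 (chr10:57784673-57784922, plus strand), a fatty acid binding protein gene of radial glia and astrocytes, were also in the highest decile of levels but held 3 and 4, with ratios of 0.24 and 0.21. Alb (chr5:90460620-90460869, plus strand), the liver's albumin gene, was in the lowest decile and held 2, with a ratio of 0.26. The ratios of Neurod6 and Fabp7 were as low as that of Alb although their levels were at the other end of the order.
Cux2: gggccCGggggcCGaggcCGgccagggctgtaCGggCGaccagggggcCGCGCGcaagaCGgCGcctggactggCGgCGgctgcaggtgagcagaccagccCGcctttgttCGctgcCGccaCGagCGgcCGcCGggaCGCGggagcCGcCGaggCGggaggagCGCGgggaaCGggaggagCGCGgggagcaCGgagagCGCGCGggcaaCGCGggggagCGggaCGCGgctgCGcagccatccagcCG
Rorb: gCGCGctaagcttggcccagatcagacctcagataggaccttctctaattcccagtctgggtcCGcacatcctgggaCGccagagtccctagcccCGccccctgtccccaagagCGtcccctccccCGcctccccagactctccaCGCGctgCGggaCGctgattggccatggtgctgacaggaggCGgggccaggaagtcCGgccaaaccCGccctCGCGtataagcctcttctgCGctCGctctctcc
Neurod6: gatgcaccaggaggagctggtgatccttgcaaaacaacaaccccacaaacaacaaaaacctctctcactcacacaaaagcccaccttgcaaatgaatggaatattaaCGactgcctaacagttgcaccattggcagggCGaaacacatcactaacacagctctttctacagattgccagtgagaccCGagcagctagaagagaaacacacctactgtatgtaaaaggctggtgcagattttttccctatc
Fabp7: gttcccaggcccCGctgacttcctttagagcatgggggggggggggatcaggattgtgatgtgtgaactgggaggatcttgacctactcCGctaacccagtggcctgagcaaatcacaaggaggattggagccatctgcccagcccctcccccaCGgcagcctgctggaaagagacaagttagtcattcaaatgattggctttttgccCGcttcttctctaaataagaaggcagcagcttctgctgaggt
Alb: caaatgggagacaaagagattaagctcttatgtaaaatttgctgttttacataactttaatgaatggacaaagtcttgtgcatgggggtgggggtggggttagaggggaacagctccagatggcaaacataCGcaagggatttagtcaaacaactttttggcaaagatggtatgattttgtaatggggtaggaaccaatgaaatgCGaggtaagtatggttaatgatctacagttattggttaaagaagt

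**Figure D2:**
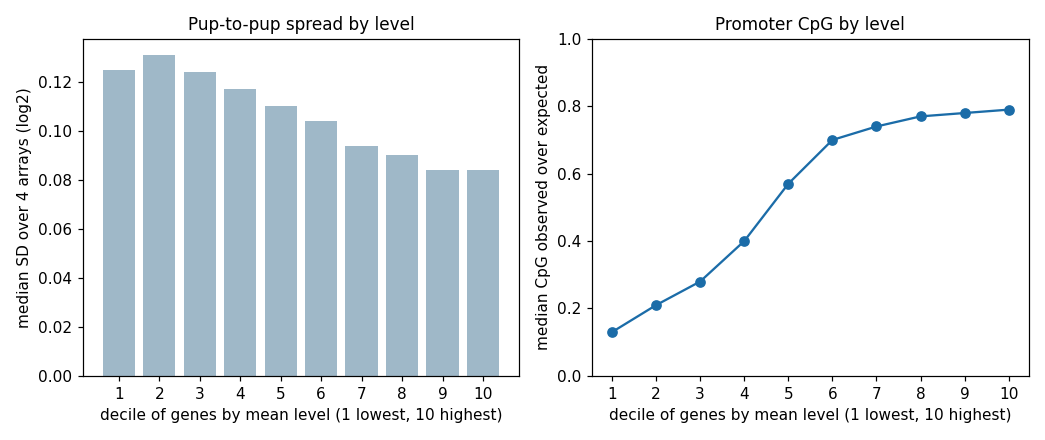
Genes were put into deciles by their mean level over the 4 control arrays (x axis, 1 lowest, 10 highest). Left, the median SD over the 4 arrays (y axis, log2), which was 0.131 in the second decile and 0.084 in the 2 highest; right, the median ratio of observed to expected CpG in promoters (y axis), which went from 0.13 to 0.79.

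Neuronal genes took the top of the order. All 22 measured pan-neuronal genes lay above the absent-tissue level and 21 of them in the upper quartile of all genes, with a median level of 10.48 and a median percentile of 98.8 (all genes, 50.0). Stmn2, which encodes a microtubule-binding protein of growing neurites, read 12.63, 12.65, 12.66 and 12.66 on replicates 1 to 4. The doublecortin gene Dcx, a microtubule gene of young neurons, read 11.23, 11.33, 11.12 and 11.04. The mean of the list was lowest on replicate 1, at 10.20 against 10.29 to 10.31 on the others, and 14 of the 22 genes were lowest there. The lowest 3 members were those of the axonal scaffold and of mature surfaces, Nefm at 6.72 ± 0.16 (SD, n = 4), Nefl at 7.67 ± 0.26 and Thy1 at 8.24 ± 0.31. Neurofilaments and Thy1 are known to be taken up late in the maturation of a neuron.

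Genes of excitatory neurons were above the absent-tissue level in 14 of 15 cases, with a median percentile of 92.9. Mef2c, a transcription factor gene of synapse development, led them at 12.36 ± 0.04 (SD, n = 4). The 2 vesicular glutamate transporters, which load transmitter into synaptic vesicles, were both present. Slc17a6 (VGLUT2), the form used by the thalamus and by young cortex, read 9.96, 9.98, 9.74 and 9.80, and Slc17a7 (VGLUT1), the form of the mature cortex, read 7.55, 7.87, 8.29 and 8.0. Slc17a7 was higher on replicates 3 and 4 than on 1 and 2, while Slc17a6 was lower there. How many of all genes split replicates 1 and 2 from 3 and 4 was not counted, here or for single genes below. The SD of Slc17a7 (0.31) was larger than that of 99.2% of the genes above the absent-tissue level. Nptx1, a pentraxin of excitatory synapses, was the member below that level, at 4.77 ± 0.09.

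Layer identity was checked against markers of each layer. All 23 measured genes of layers II-III lay above the absent-tissue level and 20 in the upper quartile (median percentile 89.6), and 18 of 22 genes of layer IV lay above it (81.5). Of layer V genes 17 of 24 lay above it (56.2), of layer VI and subplate genes 15 of 24 (49.6), and of genes of Cajal-Retzius cells, the neurons of the marginal zone above layer II, 3 of 11 (31.6). The median percentile was lower for the deeper layers than for the upper ones, and lowest for the marginal zone, although the lists share members: Cux2, Plxnd1 and Unc5d are in both upper-layer lists, and Lmo4 and Cntn6 in those of layers IV and V. The defining factors of the upper layers were high on all 4 arrays, with Cux1 at 9.53, 9.52, 9.45 and 9.16, Cux2 at 8.91, 8.95, 8.89 and 8.42, and Rorb at 10.48, 10.50, 10.32 and 9.35. In each of these 3 genes replicate 4 was the lowest. Cux1, Cux2 and the deep-layer factors Fezf2 and Foxp2 are named here as textbook markers of layers, after their values were seen.

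Classical deep-layer markers lay on both sides of the absent-tissue level. Fezf2, the factor of layer V output neurons, was at 6.01 ± 0.26 (SD, n = 4), and Bcl11b (CTIP2), its partner in those cells, at 6.36 ± 0.05, both above it. Foxp2, a factor of layer VI, was below it at 4.52 ± 0.15, and Cplx3, a complexin of subplate neurons, at 4.02 ± 0.18. Others of the same lists were high, among them Tbr1 at 8.90 ± 0.09, Lmo3 at 10.12 ± 0.11 and Ntsr1 at 8.25 ± 0.22, so the deep-layer lists did not behave as a unit. How far these levels come from cells outside layers II to IV was not tested. The ependyma and choroid plexus list, which marks the ventricle lining, had 0 of 17 genes above the absent-tissue level.

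**Figure D3:**
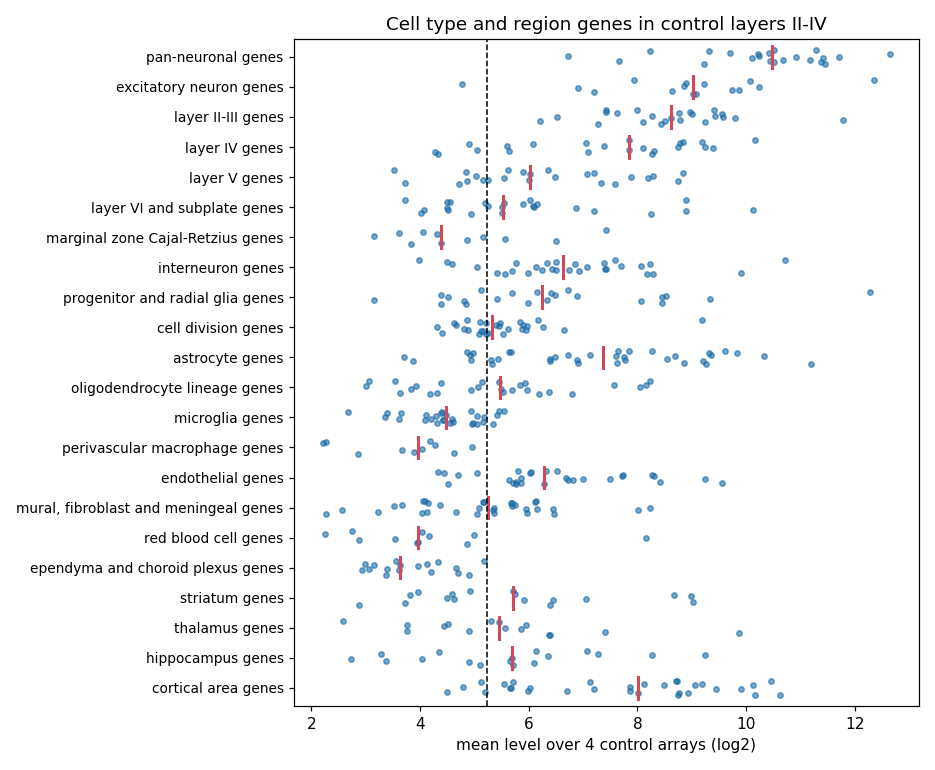
Each point is the mean level of 1 gene over the 4 control arrays (x axis, log2), in rows of cell type and region lists, with a red bar at the median of the list and a dashed line at the absent-tissue level of 5.23. Upper-layer lists lie mostly to the right of the line, and all 17 ependyma and choroid plexus genes lie to its left.

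Genes of other cortical cells were placed lower. Of interneuron genes 26 of 30 lay above the absent-tissue level (median percentile 64.8). Gad1, which makes the transmitter GABA, was at 7.59 ± 0.13 (SD, n = 4), and Lhx6, the factor of interneurons born in the medial ganglionic eminence, at 7.08 ± 0.02 with a range of 0.04 over the pups. Sst (somatostatin) read 6.49, 6.66, 7.16 and 7.39, Vip read 6.29, 6.23, 6.71 and 6.82, and Pvalb (parvalbumin) read 3.89, 3.97, 4.06 and 4.01. Sst and Vip were higher on replicates 3 and 4 than on 1 and 2, and Pvalb, which is known to appear in cortex only later, lay below the absent-tissue level on all 4. The gene of Cajal-Retzius cells that did lie high, Reln at 7.42 ± 0.10, is also an interneuron gene.

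Of astrocyte genes 30 of 36 lay above the absent-tissue level (median percentile 75.1). Sparcl1, a secreted protein that promotes synapses, was at 11.19 ± 0.11 (SD, n = 4), and Apoe, a lipid carrier, at 10.33 ± 0.15. Gfap, the filament of mature or reactive astrocytes, was at 5.30 ± 0.04, just above that level, and the gap junction gene Gjb6 was at 3.71 ± 0.11. Of oligodendrocyte lineage genes 14 of 26 lay above the level, or 53.8%, near the 54.6% of all genes. Among genes of its precursors, Pdgfra was at 8.23 ± 0.04 and Olig1 at 7.57 ± 0.15, while the myelin genes Opalin (3.01 ± 0.08), Ermn (3.54 ± 0.05) and Mog (4.38 ± 0.17) lay below. Mbp, the myelin basic protein gene, lay above it at 5.84 ± 0.05.

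Microglia and blood genes mostly lay below the absent-tissue level, and endothelial genes mostly above it. Of microglia genes 4 of 29 lay above the absent-tissue level, with Laptm5 the highest at 5.54 ± 0.23 (SD, n = 4) and Cx3cr1 at 5.45 ± 0.26, while Tmem119 was at 4.47 ± 0.11 and P2ry12 at 4.10 ± 0.19. With the 99th percentile of the reference genes as the bound, 0 microglia genes did. Of 10 perivascular macrophage genes 0 did. Of endothelial genes 24 of 29 did, with the tight junction gene Cldn5 at 7.74 ± 0.05 and the lipid transporter gene Mfsd2a, a blood-brain barrier gene, at 8.26 ± 0.02. Of genes of mural cells, fibroblasts and meninges 16 of 32 did, led by Pdgfra, which precursors of oligodendrocytes also use, and by the pericyte gene Rgs5 at 8.02 ± 0.13. Of the 20 red blood cell genes listed only 11 were measured, and 1 of the 11 lay above the absent-tissue level, Bpgm at 8.15 ± 0.17. Rhag, which red cells use and neurons do not, was at 2.25 ± 0.20.

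Genes of progenitors and of dividing cells were unevenly placed. Of progenitor and radial glia genes 15 of 22 lay above the absent-tissue level, led by Fabp7 at 12.28 ± 0.05 (SD, n = 4), Ptprz1 at 9.33 ± 0.16 and Vim at 8.45 ± 0.09, which astrocytes also use. The neurogenic factors Eomes (3.16 ± 0.13) and Neurog2 (4.38 ± 0.05) lay below it. Of cell division genes 15 of 28 lay above it, or 53.6%, near the 54.6% of all genes. Pcna, a replication clamp also used in DNA repair, was at 9.19 ± 0.06, while the others of the 5 highest, Rrm2, Tpx2, Mki67 and Mcm5, lay between 5.97 and 6.65.

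Lists of other forebrain regions held genes that cortex also uses. Of striatum genes 9 of 17 lay above the absent-tissue level, and Foxp1 (9.03 ± 0.21; SD, n = 4) and Meis2 (8.98 ± 0.08) led them, while the defining striatal genes Drd2 (3.81 ± 0.10) and Tac1 (3.72 ± 0.32) lay below. Of thalamus genes 9 of 15 did, with Slc17a6 the highest and Lhx9 (3.76 ± 0.10) and Shox2 (3.76 ± 0.14) below. Of hippocampus genes 10 of 17 did. Genes used to mark cortical areas along the sheet were above it in 27 of 31 cases, with a median percentile of 83.6. Tenm3, an adhesion gene, read 10.61, 10.84, 10.26 and 10.07, and its SD of 0.35 was the second largest of this list after that of Rorb.

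All 4 genes of the Bcl6 and Bcl11 families lay above the absent-tissue level. Bcl11a, a zinc-finger factor gene of upper-layer neurons and interneurons, read 10.71, 10.58, 10.68 and 10.56. Bcl6, the repressor whose gene is floxed in these pups, read 6.55, 6.58, 6.25 and 6.23 (percentile 61.7), higher on replicates 1 and 2 than on 3 and 4. Bcl6b and Bcl11b were at 6.0 ± 0.08 (SD, n = 4) and 6.36 ± 0.05, and Neurod6 at 9.22 ± 0.13. Sox11 and Sox4, factor genes of young neurons, showed the order of Bcl6: Sox11 read 9.63, 9.84, 9.34 and 9.25, and Sox4 read 9.43, 9.45, 9.08 and 8.93. In both, replicates 1 and 2 were above 3 and 4. The share of all genes with this order was not counted, so no link between these genes is read from it. Of 12 Pou factor genes 5 lay above the absent-tissue level, and the highest 3 were Pou3f2 (9.56 ± 0.22), Pou3f1 (8.98 ± 0.10) and Pou3f3 (8.43 ± 0.14). Pou3f factors are known to act in upper-layer neurons. All 14 genes of the Nfi, Mef2 and Tcf4 group lay above the level, against 16 of 43 forkhead genes.

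The cytoskeleton of growing neurites made up much of the very top. All 29 growth cone and cytoskeleton genes lay in the upper quartile (median percentile 99.5), and their median SD over pups, 0.055, compares with 0.092 over all genes above the absent-tissue level. Tuba1a, the alpha-tubulin of young neurons, read 12.96, 12.97, 12.92 and 12.97, and Tubb5 read 12.03, 12.03, 12.04 and 12.03, with an SD of 0.006. Map1b, an early microtubule-associated protein gene, was at 12.53 ± 0.06 (SD, n = 4) and the growth cone regulators Dpysl3 and Stmn1 at 12.10 ± 0.05 and 12.16 ± 0.06. Over the decile of genes with the highest levels the median SD was 0.084. Of kinesin genes, the motors of axonal transport and cell division, 20 of 37 lay above the level. Kif1a (10.65 ± 0.06) and Kif5c (10.37 ± 0.13), which carry cargo along axons, led them, and Kif14 (3.74 ± 0.13), a motor of dividing cells, was among the lowest.

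The gene with the highest level of all was not a neuronal one. Baiap2l1, an actin regulator gene better known in epithelia, was at 13.37 ± 0.03 (SD, n = 4), but its 3 probe sets read 13.37, 10.07 and 3.25 on average, so this rank depends on which one stands for the gene. The other genes of the first 6 were the translation factor gene Eef1a1 (13.11 ± 0.04), the small nuclear RNA gene Rn7sk (13.03 ± 0.09), Tuba1a, the actin gene Actb (12.91 ± 0.03) and Stmn2. Rn7sk had 2 probe sets, at 13.03 and 12.76.

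Synaptic genes were present at high levels while most synapses were still to form. All 23 synaptic vesicle genes lay above the absent-tissue level (median percentile 93.5), as did 20 of 21 postsynaptic scaffold genes (87.5) and 27 of 28 synaptic adhesion genes (83.5). The lowest scaffold gene, Arc, which neurons switch on with activity, was at 4.75 ± 0.04 (SD, n = 4). Of receptor genes for glutamate 20 of 23 lay above the level and of those for GABA 14 of 21. Sodium channel genes did in 6 of 11 cases, potassium channel genes in 49 of 71 and calcium channel genes in 20 of 24. The members that did not include those of other tissues, such as the muscle calcium channel gene Cacna1s at 4.23 ± 0.11 and the sensory neuron sodium channel gene Scn11a at 3.10 ± 0.10.

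For several pairs of genes cortex is known to replace one member by the other as it matures. Of the NMDA receptor subunits, the juvenile Grin2b read 10.63, 10.79, 10.70 and 10.45 and the later Grin2a read 7.78, 7.54, 7.68 and 7.42. For sodium channels, the early Scn3a read 8.26, 8.29, 8.02 and 7.88 and the late Scn1a read 6.17, 6.53, 6.34 and 6.26. Both members of both pairs were above the absent-tissue level on every array, and the probes of 2 genes cannot be set against each other. Scn3a was lower on replicates 3 and 4 than on 1 and 2.

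Chloride transport decides whether GABA excites or inhibits, and both transporters were present. Slc12a2 (NKCC1), which brings chloride in, read 7.26, 7.51, 7.21 and 7.05, and Slc12a5 (KCC2), which removes it and appears with maturation, read 8.75, 8.83, 9.02 and 8.63. The GABA receptor subunit gene Gabra2 was at 6.38 ± 0.17 (SD, n = 4). Among vesicle proteins, Syt1, the calcium sensor of release, was at 11.37 ± 0.07 and Syt4, an activity-regulated relative, read 11.57, 11.48, 11.36 and 11.32. Gabra5, an alpha subunit gene of receptors outside the synapse, read 9.80, 10.09, 10.20 and 10.29, and Snap25, a protein of vesicle fusion, read 10.49, 10.55, 10.86 and 10.79. Snap25 and Gabra5 were higher on replicates 3 and 4 than on 1 and 2, and Syt4 lower.

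Genes of axon guidance were mostly above the absent-tissue level. Of semaphorins with their plexin and neuropilin receptors 26 of 31 lay above it, of Eph receptors and ephrins 17 of 21, and of Slit, Robo, netrin and Unc5 genes 17 of 19. Among ligands, Sema7a, a membrane-bound semaphorin that promotes axon growth, was at 10.46 ± 0.18 (SD, n = 4) and Efnb2, an ephrin, at 9.37 ± 0.15. Among receptors, Plxna1 and Plxna4 were at 10.03 ± 0.18 and 9.63 ± 0.22, Epha4 at 10.29 ± 0.16, Robo2 at 10.35 ± 0.14 and the netrin receptor relative Neo1 at 10.53 ± 0.13. Robo3, a receptor of axons that cross the midline of the hindbrain and spinal cord, was at 4.25 ± 0.10. Of cadherins, the calcium-dependent adhesion molecules, 14 of 23 lay above the level, led by Cdh2 at 9.90 ± 0.09. Of delta protocadherins 9 of 10 did.

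Growth factor families were covered unevenly. Of the neurotrophin genes 8 of 11 lay above the absent-tissue level: the receptor genes Ntrk2 (8.84 ± 0.15; SD, n = 4) and Ntrk3 (7.76 ± 0.08) did, while the ligand genes Bdnf (4.82 ± 0.12), Ntf5 (4.69 ± 0.10) and Gdnf (4.97 ± 0.10) did not. Igf1r, the receptor of insulin-like growth factors, was at 8.44 ± 0.21, and Igf2, a ligand that meninges and vessels make, read 6.95, 6.11, 6.24 and 6.48. Fzd3, a Wnt receptor gene of axon growth, was at 9.62 ± 0.15, while 16 of 37 Wnt ligands and receptors lay above the level. Of FGF genes 13 of 26 did, and the highest, Fgf13 (9.47 ± 0.05), Fgf14 (9.07 ± 0.10) and Fgf12 (9.04 ± 0.08), belong to the subgroup that stays inside the cell and binds sodium channels. Of Notch pathway genes 21 of 25 did.

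Genes of cell death and survival bear on the question named in the title. Of pro-apoptotic genes 20 of 28 lay above the absent-tissue level (median percentile 52.2) and of anti-apoptotic genes 13 of 19 (66.8). Cytochrome c (Cycs), which also serves respiration, read 10.38, 10.59, 10.74 and 10.64, and Apaf1, which builds the apoptosome with it, was at 7.36 ± 0.05 (SD, n = 4). The caspases of inflammation, Casp4 (2.71 ± 0.07) and Casp12 (2.24 ± 0.03), were among the lowest 3. Of survival genes, Akt1 was at 9.36 ± 0.09, Mcl1 at 8.76 ± 0.08 and Bcl2l1 (BCL-XL) at 7.69 ± 0.04. Bcl2, a known target of repression by BCL6 in lymphocytes, was at 6.77 ± 0.07. Bcl2, Bcl2l1 and Bcl2l11 are named outside the rule, after their values were seen, and Bcl2l11 (BIM) was at 4.03 ± 0.06.

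Genes that report the state of the tissue were examined next. Of immediate early genes, which neurons switch on within minutes of activity or handling, 27 of 48 lay above the absent-tissue level. Fos read 5.26, 4.95, 4.83 and 4.77 and Npas4 was at 4.64 ± 0.12 (SD, n = 4), both below that level on average. The inducible heat shock gene Hspa1a read 5.48, 5.47, 5.66 and 5.96, and 14 of 17 heat shock genes lay above the level. Of genes induced by interferon 6 of 23 did, against 54.6% of all genes, with B2m at 7.27 ± 0.22 and Mx2, Ifit1 and Mx1 between 2.33 and 2.84. All 20 genes of cholesterol synthesis did, with Hmgcs1, an early enzyme of the pathway, at 11.87 ± 0.03.

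Housekeeping families lay high, with exceptions that are tissue-specific copies. Of ribosomal protein genes 63 of 68 lay above the absent-tissue level (median percentile 96.4), and the lowest were the copies Rpl39l (2.39 ± 0.04; SD, n = 4), Rpl10l (3.17 ± 0.37), which testis uses, and Rpl3l (3.26 ± 0.12), which muscle uses. Of genes of oxidative phosphorylation 85 of 89 did (88.5), and the lowest were the copies Cox7b2 (3.11 ± 0.23), Cox8b (3.54 ± 0.21) and Cox6b2 (4.20 ± 0.20). Ribosomal protein genes have many near-identical pseudogenes, and probes may not tell them apart.

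Families used in other organs gave the other end. Of 1016 olfactory receptor genes 5 lay above the absent-tissue level, of 163 vomeronasal receptor genes 1, and of 37 Hox genes, which pattern the body behind the forebrain, 3. Of 52 keratin genes 6 did. The highest olfactory receptor gene was Olfr1174 at 6.83 ± 0.20 (SD, n = 4), and the median level of the family was 2.66. Only 49 of 300 microRNA genes lay above the level, on an array whose probes are not made for mature microRNAs. The Y-linked genes Eif2s3y (7.51 ± 0.11), Uty (6.74 ± 0.15) and Kdm5d (5.62 ± 0.11) lay above it on all 4 arrays, and Xist, the transcript of the inactive X chromosome, read 2.64, 3.41, 3.28 and 3.25. The labels give no sex.

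The 4 pups were alike. Pearson's r across the 19938 genes lay between 0.9958 (replicates 2 and 4) and 0.9969 (replicates 3 and 4), as a description over genes that are not independent. The wide span of levels between genes keeps such an r high, so it says little about differences between pups. Between any 2 arrays, 1 to 10 of the 10893 genes above the absent-tissue level differed by 1 or more (a factor of 2 or more). Among the 10893 genes above the absent-tissue level the median SD over pups was 0.092, a factor of 1.07, and the 90th and 99th percentiles were 0.174 and 0.292. The smallest SD, 0.004, was that of Zscan21, which read 6.78, 6.78, 6.78 and 6.79, and Sdha, a subunit of mitochondrial complex II, read 9.46, 9.45, 9.46 and 9.44. After quantile normalization their SDs were 0.024 and 0.021, so the very smallest values depend on the scaling. A range of at least 1 was found in 16 genes (0.147% of those above the level), and of at least 0.5 in 414 (3.8%). The 16 became 10, 7, 14 and 7 without replicates 1, 2, 3 and 4, since a range over fewer arrays can only be the same or smaller.

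Spread was not the same in all families. By construction 2724 of the 10893 genes above the absent-tissue level have an SD in the upper quartile, above 0.131. Among upper-layer genes that held for 17 of 23 in the layer II-III list (median SD 0.163) and 10 of 18 in the layer IV list (0.142), and in the layer V list it held for 13 of 17 (0.215). It held for 16 of 27 cortical area genes, 10 of 13 genes of the insulin-like growth factor system (median SD 0.197, but 0.107 without replicate 4), 22 of 29 small nucleolar RNA genes and 11 of 17 Slit, Robo, netrin and Unc5 genes. At the other end it held for 1 of 29 growth cone and cytoskeleton genes, 1 of 19 genes of the unfolded protein response and 3 of 18 hypoxia genes. After quantile normalization these 3 counts were 2, 3 and 4. The hypoxia count was thus near the share set by construction. The small nucleolar RNA list was added after the values were seen.

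The 16 genes of widest range include markers of neuronal layers and types. Nr4a2, an orphan nuclear receptor gene of subplate and claustrum neurons that activity also induces, read 5.26, 6.79, 5.09 and 4.91, the widest range of all at 1.88. Replicate 2 alone was high, 1.71 above the mean of the other 3, and replicates 3 and 4 were below the absent-tissue level. Slc18a2, the vesicular monoamine transporter, which thalamic neurons make for a time in early life, read 5.42, 6.25, 5.68 and 4.82. Plagl1, an imprinted growth regulator gene, read 6.30, 7.42, 6.58 and 6.40, and Neurod1, a factor of young excitatory neurons, read 6.44, 7.49, 6.90 and 6.81. Replicate 2 was the highest in these 4 genes. Drd1, the dopamine receptor D1, read 5.93, 6.96, 6.17 and 6.72, with replicates 2 and 4 above 1 and 3.

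In others of these genes replicate 4 was the highest or the lowest array, with or without replicate 3 near it. Rorb deviated there by -1.09 from the mean of the other 3 pups, which read between 10.32 and 10.50. Plxnd1, a semaphorin receptor of upper-layer neurons, read 8.14, 8.57, 8.31 and 7.39, also lowest on replicate 4. Frzb, a secreted Wnt antagonist, read 7.06, 7.20, 7.90 and 8.15, and Ccn3, a matrix protein gene, read 7.61, 7.91, 8.25 and 8.63. H2bc4, a histone H2B gene, read 7.93, 7.96, 8.83 and 8.99, and the long noncoding RNA gene Malat1 read 9.17, 9.34, 8.70 and 8.33. Replicates 3 and 4 were both above replicates 1 and 2 in Frzb, Ccn3 and H2bc4 and both below them in Malat1, although in Ccn3 the gap between 3 and 4 was at least as wide as that between 2 and 3. Meg3, an imprinted noncoding RNA gene just under the limit of 1, read 8.08, 8.11, 7.31 and 7.22, with the same order as Malat1.

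**Figure D4:**
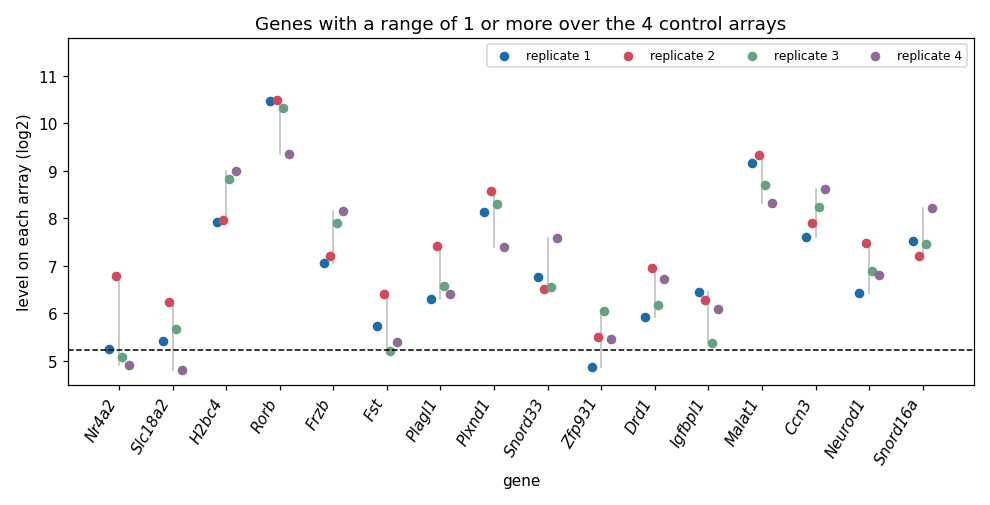
Levels on each of the 4 control arrays (y axis, log2) of the 16 genes above the absent-tissue level (dashed line, 5.23) whose range was 1 or more, in order of SD; colours mark the replicates and grey lines the range. Nr4a2 was high on replicate 2 alone and Rorb low on replicate 4 alone.

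Over all 10893 genes, the arrays were not evenly placed, and counts for a list were read against this. Replicates 1 to 4 were the highest of the 4 in 18.2%, 40.4%, 18.2% and 23.2% of genes, and the lowest in 29.9%, 16.0%, 20.8% and 33.3%. After quantile normalization of the 4 arrays, which gives them the same distribution, the shares for the highest became 24.4%, 26.9%, 21.6% and 27.0% and those for the lowest 23.8%, 27.3%, 18.3% and 30.7%. Counts below are given under both scalings.

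Genes of oxidative phosphorylation were highest on replicate 4 in 67 of 85 cases and lowest on replicate 2 in 50, and after quantile normalization in 69 and 64. Ribosomal protein genes were highest on replicate 4 in 44 of 63 cases and lowest on replicate 2 in 39 (38 and 44 after normalization). The mean shifts were small, with 0.11 on replicate 4 and -0.08 on replicate 2 for oxidative phosphorylation, and 0.08 and -0.07 for ribosomal proteins. Ndufb2, a subunit of complex I, read 7.0, 7.21, 7.19 and 7.49, and Rps15, a small-subunit protein, read 11.50, 10.97, 11.41 and 11.50. Small nucleolar RNA genes, many of which lie in introns of ribosomal protein genes and their like, were highest on replicate 4 in 18 of 29 cases and on replicate 2 in 0 (17 and 0 after normalization). Snord33 read 6.76, 6.51, 6.56 and 7.58.

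Layer II-III and guidance genes ran the other way. Layer II-III genes were lowest on replicate 4 in 15 of 23 cases, also after normalization, and highest on replicate 2 in 11 (10 after normalization), with mean deviations of -0.15 and 0.13. Layer IV genes, which include Rorb and Plxnd1, deviated by -0.19 on replicate 4 and by 0.11 on replicate 2. Of these 18 genes 8 were lowest on replicate 4, and 6 after normalization, where 30.7% of all genes were, so the count after normalization was near the background. Slit, Robo, netrin and Unc5 genes were highest on replicate 2 in 12 of 17 cases and lowest on replicate 4 in 12 (11 and 12 after normalization). Dcc, the netrin receptor, read 6.98, 7.31, 6.87 and 6.56, and Epha3 read 7.56, 7.83, 7.18 and 7.14. Eph receptor and ephrin genes were lowest on replicate 4 in 12 of 17 cases under both scalings. They were highest on replicate 2 in 9, but after normalization in 7 on each of replicates 1 and 2. Replicates 2 and 4 were thus at opposite ends of the layer II-III list and of the Slit, Robo, netrin and Unc5 list. For the respiratory genes they were too, with the ends exchanged. The order was not particular to these lists. Growth cone and cytoskeleton genes were highest on replicate 2 in 18 of 29 cases and lowest on replicate 4 in 13 (16 and 14 after normalization). For calcium channel genes the counts were 13 and 11 of 20 (9 and 11), and for synaptic adhesion genes 12 and 14 of 27 (9 and 12). Synaptic vesicle genes differed, with 10 of 23 highest on replicate 3 and 11 lowest on replicate 1 (10 and 9).

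Markers of other cells and layers shared these directions in some lists and not in others. On replicate 4 layer V genes deviated by 0.05, layer VI and subplate genes by -0.07, interneuron genes by 0.06, endothelial genes by 0.05 and astrocyte genes by 0.01. On replicate 2 the same lists deviated by -0.04, 0.12, -0.05, -0.03 and -0.02. Of these, layer VI and subplate genes had the direction of the layer II-III genes in their mean deviations. By count, 6 of the 15 were highest on replicate 2 (3 after normalization), not above the 40.4% and 26.9% of all genes. On replicate 4, 7 of the 15 were lowest under both scalings. Their mean on replicate 2 includes Nr4a2, which read 6.79 there and between 4.91 and 5.26 on the others. Excitatory neuron genes (0.10 on replicate 2 and -0.07 on replicate 4) and cortical area genes (0.09 and -0.09) had the direction of the layer II-III genes too. All genes above the absent-tissue level deviated by 0.04 on replicate 2 and -0.02 on replicate 4. Ldb2, a cofactor gene of deep-layer neurons, read 7.43, 7.29, 7.58 and 8.03, highest on replicate 4, and Pde1a, a phosphodiesterase gene of the layer V list, read 8.0, 8.03, 8.51 and 8.58. The part of these other cells in the values of the upper-layer and guidance genes was not tested.

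Replicates 1 and 3 were marked by other lists. Astrocyte genes were lowest on replicate 1 in 16 of 30 cases and highest on replicate 3 in 14 (14 and 16 after normalization), with deviations of -0.07 and 0.08. Clu, a secreted chaperone gene, read 7.99, 8.19, 8.44 and 8.45, and Aqp4, the water channel of astrocyte endfeet, read 7.73, 7.65, 8.0 and 8.0. Oligodendrocyte lineage genes were highest on replicate 3 in 9 of 14 cases (10 after normalization). Heat shock genes were lowest on replicate 1 in 11 of 14 cases (9 after normalization), with a deviation of -0.11. Collagen genes were lowest on replicate 3 in 17 of 29 cases (12 after normalization), and Col1a2, a fibrillar collagen gene of meninges and vessels, read 6.0, 5.50, 5.49 and 5.75. Igf2 and Col1a2 were both highest on replicate 1, as was Dcn, another gene of fibroblasts, which read 4.61, 3.31, 3.20 and 3.54 and lay below the absent-tissue level. Their list did not share this. Of its 16 mural, fibroblast and meningeal genes above that level, 4 were highest on replicate 1 and 6 lowest, under both scalings. The deviation of the list there was 0.02 as deposited.

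**Figure D5:**
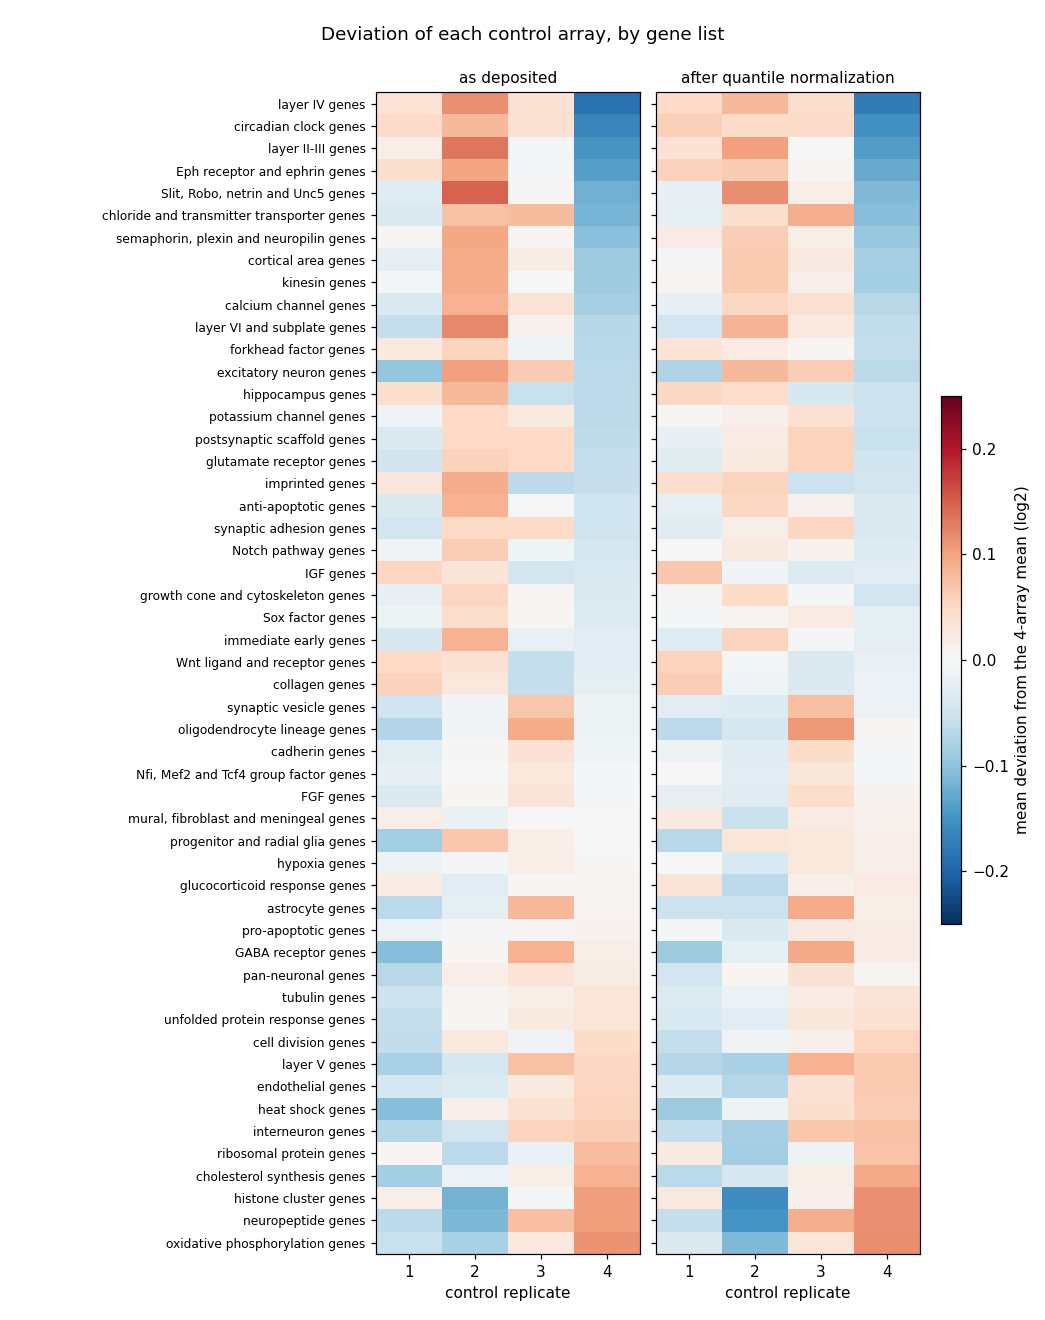
For the 52 lists with 10 or more genes above the absent-tissue level, the colour gives the mean deviation (log2) of each control array (x axis) from the mean of the 4, as deposited and after quantile normalization, in order of the deviation of replicate 4. On replicate 4, layer IV, circadian clock and layer II-III genes lie below the mean in both panels, and oxidative phosphorylation genes above it. The small nucleolar RNA list is not drawn.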

How the data were processed

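The table the authors deposited holds log2 values, 1 for each probe set on each array, and the log2 scale was read from their range. Per the labels' design text the arrays were analysed in BRB-ArrayTools; how background was corrected, arrays normalized and probes summarized, and when arrays were scanned, was not given in the sources used here. The table holds no detection calls and no signal of single probes, so the number of arrays limits the precision. Only the 4 control columns were read. Of the 35556 probe sets, 21789 name 1 gene in the platform's annotation, 1621 name several and 12146 are unnamed here; 21698 were given current symbols through the Entrez identifier and the GRCm38.p6 gene table.

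Means, SDs, ranges and percentiles were computed in Python 3.11.15 with pandas 2.3.3, numpy 2.4.6 and scipy 1.17.1, and the code was tested on simulated data. With 1 group there is no comparison and no test. Gene lists (73, of which the small nucleolar RNA and the long noncoding RNA lists were added after values were seen, and the histone list was fitted to renamed symbols) are described by counts, medians and the share over all genes. The members and lists were chosen with earlier results of these data known. Named genes are the Bcl6 and Bcl11 genes and Neurod6, those among the 25 of highest mean, the 37 of largest and the 15 of smallest SD, the 6 per array that deviate most in each direction, and of each list the 5 highest, the 3 lowest and the 3 of largest SD, with known developmental pairs; textbook markers outside that rule (Cux1, Cux2, Dcx, Fezf2, Foxp2, Gad1, Lhx6, Gfap, Mbp, Mog, Cldn5, Tmem119, P2ry12, Alb and others) were named after their values were seen. Promoters are RefSeq's, of the GRCm38.p6 build. Alternatives were quantile normalization, median centring, the mean or the lowest probe set of a gene, other bounds for the absent-tissue level, all genes, ordering by range, and leaving out each replicate.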

Additional observations from a re-analysis of the deposited data

Results flagged for a closer look

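A result is listed here where 1 of the 4 arrays lay far from the other 3, so that its gap to the nearest other array was more than 0.829 of the whole range (Dixon's limit for 4 values). Chance flags about 1 in 20 groups of 4, and the same measure marked 535 of the 10893 genes above the absent-tissue level, or 4.91%: 127, 141, 91 and 176 of them by replicates 1 to 4. Of 184 genes named in the text 10 were marked, and of 71 lists 3, which is near that background.

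Among the genes, replicate 4 was the array apart in Rorb (gap share 0.850, 9.35 against 10.32 to 10.50), Cux2 (0.885, 8.42 against 8.89 to 8.95), Ntsr1 (0.928, 7.92 against 8.35 to 8.38) and Mx1 (0.856, 2.69 against 2.87 to 2.90, below the absent-tissue level). Bcl2l11 was apart on the same array (0.901, 4.12 against 4.0 to 4.01). Replicate 2 was apart in Neurod6 (0.932, 9.41 against 9.15 to 9.17), Foxp2 (0.843, 4.75 against 4.42 to 4.47) and Mcl1 (0.832, 8.88 against 8.71 to 8.74). Replicate 3 was apart in Tuba1a (0.838), where it read 12.92 against 12.96 to 12.97.

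Among list means, replicate 1 was apart in the pan-neuronal genes (0.829, 10.20 against 10.29 to 10.31) and replicate 4 in the circadian clock genes (0.830, 7.16 against 7.36 to 7.41), a list that holds Rorb, Rora and Nr1d1. Rora, which layer IV neurons also use, read 7.33, 7.12, 7.16 and 6.60, and Nr1d1 read 9.30, 9.21, 9.34 and 8.82. The vomeronasal receptor mean (0.897) rests on 1 gene above the absent-tissue level, Vmn2r9 (also 0.897), which was apart on replicate 4, at 5.38, 5.41, 5.42 and 5.02.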

How the results depend on the processing

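The number of genes above the absent-tissue level (10893) lay between 9449 and 14160 under all alternatives, the median SD (0.092) between 0.082 and 0.105, and the lowest r between arrays (0.9958) between 0.9956 and 0.9964. The 16 genes with a range of 1 or more were 7 to 14 when 1 replicate was left out and 31 when all genes were counted; fewer arrays and more genes, respectively, change this count by construction. Of the 37 genes of largest SD, 34 were among the first 37 after quantile normalization, 32 when ordered by range and 24 to 29 without 1 replicate. With the 99th percentile of the reference genes, the counts above the level were lower by over 1.5 times in 12 lists, among them 0 microglia, 12 Notch, 17 immediate early, 13 pro-apoptotic, 7 Wnt, 9 cell division and 9 mural and meningeal genes. Without replicate 4 the median SD of the insulin-like growth factor genes was 0.107, of the circadian clock genes 0.076 and of the semaphorin genes 0.086. No paired analysis was possible because only 1 group was used. Without detection calls, levels near 5.23 cannot be read as present or absent, and 4 pups cannot separate animal from array.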

Other observations

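Some genes outside the comparisons above are given as values. Rmrp, the RNA of a mitochondrial and nucleolar ribonuclease, read 10.95, 10.13, 10.53 and 10.93, with replicate 2 the lowest. Cck, a peptide gene of interneurons and of excitatory neurons, read 8.10, 7.76, 8.58 and 8.49, and Rgs4, a regulator of G protein signalling, read 8.58, 8.38, 8.97 and 9.35. Igfbpl1, a gene of migrating and young neurons, read 6.45, 6.28, 5.38 and 6.09, with replicate 3 alone low, and Cacng3, an auxiliary subunit of glutamate receptors, read 6.83, 7.31, 7.73 and 7.73, with replicate 1 the lowest. Zfp931, a zinc-finger gene, read 4.87, 5.50, 6.05 and 5.46.

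Neuropeptide genes, 16 of 28 of them above the absent-tissue level, deviated by -0.11 on replicate 2 and 0.10 on replicate 4 (-0.15 and 0.12 after quantile normalization), and 8 of the 16 were highest on replicate 4. Genes of cholesterol synthesis were highest on replicate 4 in 12 of 20 cases and lowest on replicate 1 in 11 (13 and 10 after quantile normalization). Kinesin genes were highest on replicate 2 in 12 of 20 cases and lowest on replicate 4 in 12, under both scalings.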
